A study of Mus musculus with 32 samples.

Results

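The comparison asks how the RNA of hindlimb muscle differs between old and young mice in the second part of the light phase. It takes the arrays of zeitgeber time (ZT, the hours since lights on) 6 and 9, which are 8 of the 32 arrays of the series. Of these, 4 arrays come from C57BL/6 mice aged 80 weeks and 4 from C57BL/6 mice aged 8 weeks, with 2 arrays per age at ZT 6 and 2 at ZT 9. No mouse received a treatment or carried an altered gene according to the labels, and all were kept for 2 weeks in 12 h of light and 12 h of darkness with free access to food. Each array held the pooled RNA of 3 mice sampled at the same time, so the spread between arrays is that between pools and hides the spread between single animals. Whole hindlimb muscle was taken, and the labels name neither single muscles nor the sex of the mice. All values are log2 levels, so a difference of 1 is a doubling.

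The arrays carried the transcripts of muscle. Over the 8 arrays Ttn, the giant spring protein of the sarcomere, had levels of 13.24 to 13.30. Ckm, the muscle creatine kinase, had 12.87 to 13.27, Acta1, skeletal actin, 13.44 to 13.66, and Myh4, the myosin of the fastest fibres, 13.51 to 13.64. Myh7, the slow myosin, was lower and more variable, at 9.08 to 10.82. The mean of 12 slow fibre genes ran from 8.73 to 9.86 in the 8-week arrays and from 8.53 to 9.70 in the 80-week arrays, so the pools of both ages differed in how much slow muscle RNA they held. Xist lay between 4.60 and 5.11 and the Y-linked Uty between 8.01 and 8.67 in all 8 arrays.

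Some pools also carried RNA of other tissues. Alb, the albumin of hepatocytes, had a median of 8.92 over the 32 arrays. At ZT 6 it reached 12.60 and 10.76 in the 8-week arrays, and 11.35 in replicate 1 of the 80-week arrays against 7.27 in replicate 2. At ZT 9 it was 9.22 and 6.63 at 8 weeks, and 6.40 and 6.95 at 80 weeks. Thus 3 of the 4 arrays of ZT 6 stood more than 1.5 above the median, and no array of ZT 9 did. The mean of 24 hepatocyte genes followed, at 9.59 and 7.34 in the young arrays of ZT 6 and 7.97 in replicate 1 of the aged arrays, against 5.72 to 6.58 in the other 5 arrays. None of the 24 genes passed the age test, but only 2 were higher in aged arrays. The list median was -0.94, with -1.56 at ZT 6 and -0.25 at ZT 9, so liver RNA was not balanced between the ages. Results below are therefore given for all 8 arrays, and beside them for ZT 9 alone or without these 3 arrays where it matters.

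**Figure D1:**
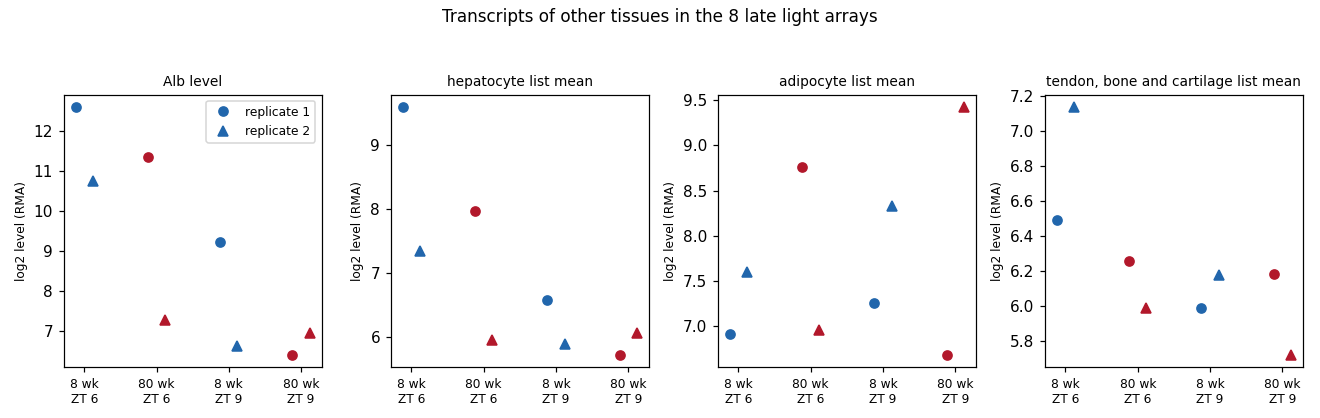
Level of Alb and mean level of the hepatocyte, adipocyte and tendon, bone and cartilage gene lists (log2, RMA) in each of the 8 arrays, by age and ZT, with circles for replicate 1 and triangles for replicate 2. Alb exceeds 10 in 3 of the 4 arrays of ZT 6, while the adipocyte mean is highest in replicate 2 of the 80-week arrays at ZT 9 (9.42) and the tendon mean in replicate 2 of the 8-week arrays at ZT 6 (7.14).

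Skeletal muscle loses mass and force with age, and the changes known for ageing muscle include a loss of motor nerve contact, a stiffer matrix with less new collagen, altered insulin signalling and a slow gain of immune cells and fat. Muscle also has its own circadian clock, in which the activators BMAL1 and CLOCK drive the Per, Cry and Rev-erb repressor genes. The late light phase is the rest phase of mice, when Rev-erb transcripts are high and Per transcripts climb. An age comparison at a fixed part of the day holds this rhythm nearly constant.

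With ZT as a covariate, 33 genes rose with age (0.142% of 23279 genes tested) and 40 fell (0.172%) at an adjusted p under 0.05 (limma, Benjamini-Hochberg over all genes). The rises reached at least 2-fold in 13 genes and the falls in 8. For each of the 73 genes all 4 aged arrays lay on the same side of all 4 young arrays, and the difference had the same sign at ZT 6 and at ZT 9. Such separation within both times was itself common, at 8.56% of all genes with aged above young and 8.17% with aged below. An unadjusted p under 0.05 was reached by 1880 genes in the upward and 2109 in the downward direction. The median difference over all genes was -0.01.

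The clearest rise was that of Kcnab1, a beta subunit of voltage-gated potassium channels. Its levels were 6.35 and 6.59 at ZT 6 and 6.58 and 6.79 at ZT 9 in 8-week muscle, and 8.46, 8.44, 8.77 and 8.59 in 80-week muscle. The aged arrays thus all lay far above the young ones, by 1.99 ± 0.10 (SE) or 3.96-fold (adjusted p = 0.00025, limma). The difference was 1.98 at ZT 6 and 1.99 at ZT 9, and Kcnab1 differed by 1.82 in the 24 arrays of the other 6 times.

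Antibody transcripts gave the highest fold. Ighg2c, the constant region of the heavy chain of immunoglobulin G2c, had 5.81, 6.05, 6.17 and 5.12 in the young arrays and 8.03, 8.42, 8.27 and 8.23 in the aged arrays. It rose 5.46-fold (2.45 ± 0.21 SE, adjusted p = 0.00572, limma). Of the 8 measured genes of the B and plasma cell list 6 were higher with age and 5 were separated upward within both times (8.56% of all genes were), Ighg2c being the single call. Igkc, the constant region of the kappa light chain, had 5.94 to 6.26 in young pools and 9.53, 7.71, 8.35 and 10.61 in aged pools (difference 2.96, adjusted p = 0.0563, limma). Jchain, which joins antibody multimers, differed by 0.95 and Ighm, the heavy chain of immunoglobulin M, by 0.92, with adjusted p-values of 0.184 and 0.128 (limma). The B cell receptor subunit gene Cd79a was separated too (0.40), while Ms4a1, the CD20 antigen, was at -0.10. The mean of the list was 5.71 to 5.88 in young and 6.51 to 7.12 in aged arrays, without overlap. This mean includes Ighg2c and Igkc, whose differences were the largest of the list, so it is no separate support. In bulk RNA, more cells of a type and more RNA per cell cannot be told apart. Antibody genes share near-identical segments, and their probe sets may cross-react. A variable segment of the kappa chain (of the Igkv4 group) went the other way, from 7.47 to 8.29 in young arrays to 6.18 to 6.78 in aged arrays (a fall of 2.37-fold, adjusted p = 0.0436, limma). Blnk, an adaptor of B cell receptor signalling outside the list and named after its values had been seen, fell 1.52-fold, from 6.23 to 6.49 to 5.72 to 5.81 (adjusted p = 0.0371, limma). It was lower by 0.40 at the other 6 times.

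A pair of genes known to answer to mechanical load and injury in muscle rose with age, and they were paired after their values had been seen. Ankrd1, which encodes a titin-binding ankyrin repeat protein of stressed muscle, had 7.57 and 7.95 at ZT 6 and 7.11 and 7.09 at ZT 9 in young arrays. In aged arrays it had 9.31 and 9.12 at ZT 6 and 9.35 and 8.66 at ZT 9. The groups did not overlap, and the rise was 3.21-fold (1.68 ± 0.17 SE, adjusted p = 0.0114, limma). Ccn1, which encodes a matrix-associated signalling protein, was very even in young muscle, at 8.01, 7.96, 7.98 and 8.09. In aged muscle it had 8.98 and 9.18 at ZT 6 and 9.82 and 9.60 at ZT 9, a rise of 2.62-fold (adjusted p = 0.00903, limma). Both genes are textbook targets of the coactivator YAP, which acts through TEAD factors. Whether YAP has a part in these rises was not tested.

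The promoters of these genes are shown because both genes rose and because the TEAD element (GGAATG, or CATTCC on the other strand) occurs in both. The sequences are those of RefSeq (GRCm38.p6), from 250 bases before to 50 after the gene's start, on the gene's strand. Ankrd1 lies at chr19:36119795-36120094 (minus strand) and Ccn1 at chr3:145649936-145650235 (minus strand). Capitals mark the TEAD element and, in Ccn1, also the TATA element (TATAAA, or TTTATA on the other strand).
Ankrd1: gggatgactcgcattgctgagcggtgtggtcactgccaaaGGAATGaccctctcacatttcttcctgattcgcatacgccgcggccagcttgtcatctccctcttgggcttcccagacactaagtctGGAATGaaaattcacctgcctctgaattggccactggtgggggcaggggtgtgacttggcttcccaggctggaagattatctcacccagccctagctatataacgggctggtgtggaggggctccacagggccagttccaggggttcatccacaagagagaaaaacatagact
Ccn1: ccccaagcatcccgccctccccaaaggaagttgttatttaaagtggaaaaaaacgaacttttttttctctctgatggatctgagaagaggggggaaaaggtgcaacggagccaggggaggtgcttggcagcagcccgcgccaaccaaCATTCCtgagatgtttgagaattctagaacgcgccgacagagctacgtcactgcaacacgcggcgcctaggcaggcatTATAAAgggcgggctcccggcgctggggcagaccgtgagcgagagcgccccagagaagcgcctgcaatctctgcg
The element begins 210 and 123 bases before the start of Ankrd1 and 103 bases before that of Ccn1. It was present in 6 of the 23 risen genes with a promoter in the table (26.1%), in 4 of 24 fallen genes (16.7%) and in 15.4% of all 17519 genes with a promoter. Besides Ankrd1 and Ccn1 the risen genes with it were Aldh1a1, Atp13a5, Eda2r and Rai14. The clock's E-box (CACGTG, its own reverse complement) was in 3 of the 23 risen genes, in 2 of the 24 fallen genes and in 9.19% of all. The TATA element was in 6 of the 23 risen genes (26.1%), in 7 of the 24 fallen genes (29.2%) and in 14.0% of all. The CArG box, the element of serum response factor, was in 0 of the risen and 1 of the fallen genes (Meg3), and in 1.66% of all. The motifs were chosen after the values had been seen, and a match is a description of letters, not a site in use.

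Among the other leading rises, Rasd2, a small GTPase, rose 2.50-fold, from 7.67 to 8.22 in young arrays to 9.04 to 9.62 in aged arrays. Tmem100, a small membrane protein known from blood vessels and sensory neurons, rose 2.34-fold. Its aged levels were 8.89 and 9.07 at ZT 6 and 9.01 and 8.44 at ZT 9, against 7.45 to 7.72 in young pools. Amy1, an amylase that cleaves starch and glycogen, rose 2.30-fold from 7.89 to 8.18 to 9.10 to 9.43. Amy1 belongs to a family of near-identical copies, and its neighbour Rnpc3 rose as well (0.75). Hook1, an adaptor that ties cargo to the dynein motor, was tight in both ages (7.44 to 7.76 and 8.66 to 8.90) and rose 2.24-fold. The adjusted p-values of these genes were 0.0224, 0.0158, 0.00572 and 0.00572 (limma).

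Ctxn3, a cortexin membrane protein, rose 2.29-fold and the kinase gene Stk26 2.26-fold. Eda2r, a receptor of ectodysplasin A2 and a known p53 target, had 6.54 to 6.84 in young and 7.61 to 7.98 in aged arrays, a rise of 2.11-fold (adjusted p = 0.0128, limma). Pld5, of the phospholipase D family, rose 2.07-fold. Pkp2, a plaque protein of desmosomes that was named after its values had been seen, rose 2.02-fold, from 6.01 to 6.35 to 7.00 to 7.25. The remaining 20 rises lay between 0.53 and 0.93. They were Tdrp, E030003E18Rik, Plekhb1, Rai14, Klhl38, Gdf11, Tdrkh, Lgals3, Rhpn2, Atp13a5, Aldh1a1, Rnpc3, Cdkl2, Taf9b, Klf10, Camk2b, Bcap29, Fbxo32, Crbn and Gm7102. E030003E18Rik overlaps Aldh1a1 and Klhl38 neighbours Fbxo32 in the RefSeq annotation. The overlapping pair may share signal, while Klhl38 and Fbxo32 are separate genes.

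**Figure D2:**
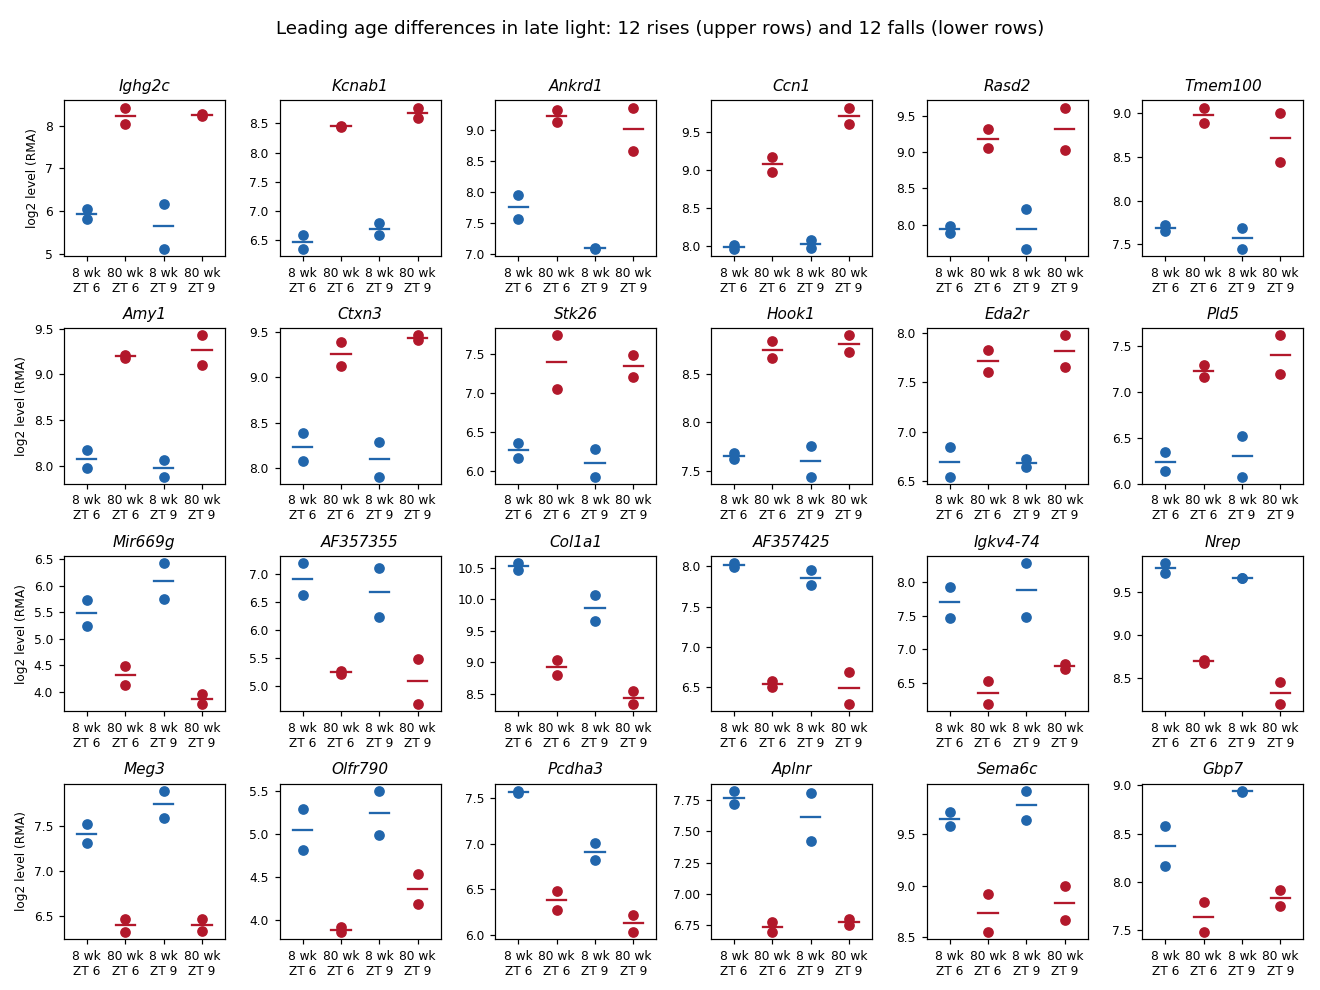
Level (log2, RMA) of the 12 largest rises and the 12 largest falls in each late light array, with 8-week arrays in blue, 80-week arrays in red and a line at the mean of each group of 2 arrays. In every panel the 4 aged arrays lie on the same side of the 4 young arrays, as for Kcnab1 (6.35 to 6.79 against 8.44 to 8.77).

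Among the protein-coding genes that fell, Col1a1, the main chain of type I collagen, had the largest difference in the 8 arrays. It had 10.57 and 10.47 at ZT 6 and 9.66 and 10.06 at ZT 9 in young muscle, and 9.04, 8.80, 8.34 and 8.55 in aged muscle. It fell 2.84-fold (-1.51 ± 0.12 SE, adjusted p = 0.0048, limma). The lowest young pool stood above every aged pool, although the young pools of ZT 9 were lower than those of ZT 6. Col6a2, a chain of the type VI collagen that surrounds fibres, fell by 0.59, from 8.31 to 8.45 to 7.67 to 7.88 (adjusted p = 0.0461, limma).

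Col1a1 and Col6a2 were the 2 of 20 genes of the collagen and matrix list past the test, and none of the list rose. In all, 19 of the 20 were lower in aged muscle, 13 were separated downward within both times (8.17% of all genes were) and the list median was -0.49 against -0.01 over all genes. Col1a2, which pairs with Col1a1, was lower by 1.98-fold (adjusted p = 0.0563, limma), with aged values of 8.68, 8.58, 7.89 and 8.69 against 9.60, 9.86, 8.98 and 9.35. Col5a1, of a minor fibril collagen, was lower by 1.45-fold at the same adjusted p (limma). Lox, which cross-links collagen, was the exception at 0.33. The list median was also below 0 at ZT 9 alone (-0.47) and at the other 6 times (-0.29).

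Markers of connective tissue cells moved with the collagens only in part. The mean of 13 tendon, bone and cartilage genes was highest in the young arrays of ZT 6 (6.49 and 7.14), overlapped otherwise (5.99 and 6.18 in young at ZT 9, 5.72 to 6.26 in aged), and none of these genes passed the test. Fmod, a proteoglycan of tendon, was at 10.12 in replicate 2 of the young arrays at ZT 6 and between 7.00 and 8.72 in the other 7. The fibro-adipogenic progenitor list had 0 of 9 genes past the test and a mean of 8.42 to 8.51 in young and 8.29 to 8.60 in aged arrays. Col1a1 was called again when each array was left out in turn, with differences of -1.61 to -1.44. With the spread taken from all 16 groups of the series, Col1a1 and Col6a2 did not pass (adjusted p = 0.155 and 0.133, limma). Nor did they in the 24 arrays of the other times (adjusted p = 0.0675 and 0.0974, limma). In that model of 16 groups 2 other genes of the list fell (1.1% of all genes did), Col15a1 and Sparc (-0.58 and -0.89, adjusted p = 0.0278 and 0.0485, limma). What part tendon or bone in the pools has in the collagen values was not tested.

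Nrep, which encodes a small protein named for its link to nerve regeneration, had 9.84 and 9.72 at ZT 6 and 9.67 and 9.67 at ZT 9 in young arrays. In aged arrays it had 8.72, 8.68, 8.20 and 8.46, a fall of 2.32-fold (adjusted p = 0.00494, limma). Aplnr, the receptor of apelin, fell 1.91-fold and was nearly constant among aged arrays at 6.70 to 6.80, against 7.42 to 7.83. Sema6c, a transmembrane semaphorin, fell 1.91-fold from 9.58 to 9.92 to 8.55 to 8.99. Gbp7, an interferon-inducible GTPase, fell 1.90-fold, from 8.16 and 8.58 at ZT 6 and 8.94 and 8.95 at ZT 9 to 7.48 to 7.91. Pcdha3, a clustered protocadherin, fell 1.98-fold, and its young levels differed between ZT 6 (7.55 and 7.58) and ZT 9 (7.00 and 6.81). The adjusted p-values were 0.0184, 0.0315, 0.0397 and 0.0212 (limma).

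Irs1, the substrate that carries the signal of the insulin receptor, fell 1.52-fold, from 8.67 to 9.11 to 8.13 to 8.48 (adjusted p = 0.0436, limma). Itm2a, a membrane protein known from muscle and cartilage differentiation, fell 1.54-fold (adjusted p = 0.0373, limma). Irs1 and Itm2a were named after their values had been seen. A further 14 falls lay between -0.86 and -0.58. They were Tet1, which oxidises methylated cytosine in DNA, Map2k3, a kinase upstream of p38, Aldh1l2, a mitochondrial enzyme of folate metabolism, Slc41a3, Rftn1, Klhdc3, Rpl10, Defb5, Tgif2lx2, Gm9376, Gm3219, 1700066C05Rik, 1700029P11Rik and 2310001K24Rik.

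Meg3 fell together with some of its neighbours. Meg3 is the first of the maternally expressed noncoding RNAs of the imprinted cluster between Dlk1 and Dio3, which also holds Rian, a host of snoRNAs (guides of RNA modification), Mirg and many miRNA genes. Meg3 had 7.52 and 7.31 at ZT 6 and 7.89 and 7.59 at ZT 9 in young arrays, and 6.46, 6.32, 6.46 and 6.32 in aged arrays. It fell 2.27-fold (-1.19 ± 0.12 SE, adjusted p = 0.00903, limma). The snoRNA gene AF357425 had 7.77 to 8.04 in young and 6.29 to 6.69 in aged arrays and fell 2.68-fold (adjusted p = 0.0048, limma). AF357355, a further snoRNA gene, fell 3.10-fold from 6.22 to 7.19 to 4.67 to 5.48 (adjusted p = 0.0397, limma). Rian was lower by 2.29-fold without passing the test, at 5.96 to 6.85 against 4.75 to 5.90 (adjusted p = 0.0862, limma).

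RefSeq lists 103 genes from Dlk1 to Dio3, of which 67 were measured. Of these, 4 fell (Meg3, AF357425, AF357355 and Mir453) and none rose, against 0.172% and 0.142% of all genes. In aged muscle 49 of the 67 were lower, with a median of -0.25, but 52 of the 67 were miRNA genes. The 6 snoRNA genes were all lower, from -1.63 to -0.45, and all separated within both times (8.17% of all genes were). Of these 6, 2 passed the test. Among all 106 snoRNA genes measured 70 were lower, with a median of -0.08. The protein-coding genes Dlk1, Rtl1 and Dio3, which are expressed from the other parental copy, differed by -0.10, -0.16 and -0.12 and did not pass the test. Of the 52 miRNA genes 35 were lower, with a median of -0.18. Of all 539 miRNA genes measured 389 were lower, with a median of -0.17, so those of the cluster did not stand out. At the other 6 times 8 of the 67 genes fell and none rose (4.2% of all genes fell there and 6.25% rose), with snoRNA genes from -1.04 to -0.15. The cluster was looked at after the fall of Meg3 had been seen.

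**Figure D3:**
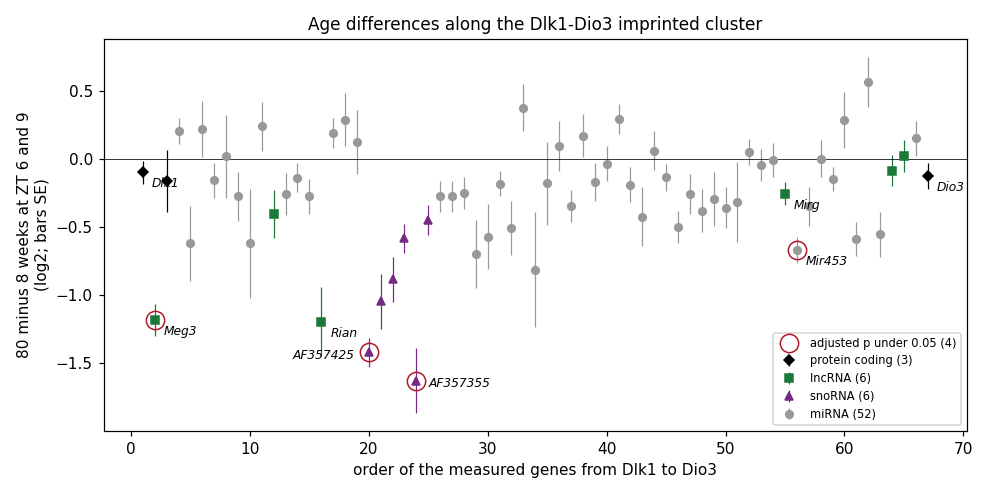
Age difference in late light (80 minus 8 weeks, log2, bars SE) of the 67 measured genes from Dlk1 to Dio3, in their order in RefSeq, by gene class, with the 4 genes past the test ringed. Meg3, Rian and the 6 snoRNA genes lie between -1.63 and -0.45, where some miRNA genes also lie, and the protein-coding genes at both ends lie near 0.

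Of the miRNA genes, 4 fell and none rose. Mir339 had 7.28, 7.65, 7.83 and 7.70 in young arrays and 6.61, 6.56, 7.06 and 6.59 in aged arrays, a fall of 1.88-fold (adjusted p = 0.0373, limma). Mir453, at 5.09 to 5.47 against 4.49 to 4.64, fell 1.59-fold. Mir669g, of a family of many near copies, fell 3.24-fold, from 5.24 to 6.43 to 3.76 to 4.49. Mir10a fell 1.56-fold at very low levels (2.87 to 3.27 against 2.42 to 2.65), and its aged values lay below the 5th percentile of every aged array (2.98 to 3.08). The adjusted p-values of Mir453, Mir669g and Mir10a were 0.0397, 0.0397 and 0.0461 (limma). These probe sets read the hairpin gene and do not show how much mature miRNA is present. The mature sequences, with the seed (bases 2 to 8) in capitals, are given to show what these genes encode and which seed each carries.
mmu-miR-10a-3p: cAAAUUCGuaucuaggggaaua
mmu-miR-10a-5p: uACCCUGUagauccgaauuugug
mmu-miR-339-3p: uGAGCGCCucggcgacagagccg
mmu-miR-339-5p: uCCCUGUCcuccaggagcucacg
mmu-miR-453: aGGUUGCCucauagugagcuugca
They come from the RefSeq annotation of GRCm38.p6, which held 3 of the 4 genes in the table used. The 5 seeds all differ.

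Rises and falls differed in signal. Of the 40 fallen genes, 18 had a mean level below the median of all values (6.05), which at 45.0% is close to the 50.4% of all genes tested, against 1 of the 33 risen genes (3.03%). Olfactory and vomeronasal receptor genes, which muscle is not known to use, made up 8 of the 40 falls and 1356 of the genes tested (5.82%), whose median difference was -0.23. None of them rose. Olfr790, for example, had 4.81 to 5.51 in young arrays and 3.87 to 4.54 in aged arrays and fell 2.03-fold (adjusted p = 0.0461, limma). At the low end all genes leaned the same way: the 2932 genes with a mean of 4 or less had a median difference of -0.16, and the 4155 genes above 8 had a median of 0.05. The 5th percentile of the arrays was 3.08 to 3.25 in young and 2.98 to 3.08 in aged arrays. When the 8 arrays were brought to the same distribution by quantiles, 34 of the 40 falls and 30 of the 33 rises were called again. The part of low signal in single falls was not tested.

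The same differences were then read in the 24 arrays of the other 6 times, which come from other mice and were not used to call the 73 genes. There 1455 genes rose (6.25%) and 977 fell (4.2%). Of the 33 risen genes all 33 were higher there and 31 passed the test. Of the 40 fallen genes 38 were lower there and 17 passed. The falls divided by signal: 14 of the 22 with a level above the median passed at the other times, and 3 of the 18 below it. The largest shortfalls among the leading genes were Mir669g (-1.70 in late light, -0.38 at the other times), the Igkv4 segment (-1.25 and -0.32), Olfr790 (-1.02 and -0.16) and Pcdha3 (-0.98 and -0.16). Klf10, a transcription factor gene induced by TGF-beta, rose by 0.61 in late light and differed by 0.14 at the other times.

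Whether an age difference was particular to late light was tested directly in a model of all 16 groups. No gene passed that test (limma, 0 of 23279), and 1357 had an unadjusted p under 0.05. The smallest p-values belonged to Tgif2lx2 (-0.96 ± 0.19 SE between late light and the rest), Olfr804 (-0.62), 9430037G07Rik (-0.75) and Gm12814 (-1.15), each with an adjusted p of 0.422 (limma). With the spread taken from all 16 groups, the late light difference itself was called for 318 genes upward (1.37%) and 257 downward (1.1%), among them 60 of the 73. List members short of the test in the 8 arrays passed there too. Upward these included Cry2, Ppp1r3c, Mt1, Hspa5, the immediate early genes Fos, Jun, Egr1 and Btg2, Chrnb1, Musk, Ostn, Dkk3, Sesn2, Sln and Igkc, with adjusted p-values from 0.00581 (Fos) to 0.049 (Musk). Downward they were Actc1, Chrne, Col15a1, Sparc, Irf9, Bst2, Rpl3, Ibsp and Chrdl2, from 0.0278 (Col15a1) to 0.0497 (Ibsp; all limma).

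**Figure D4:**
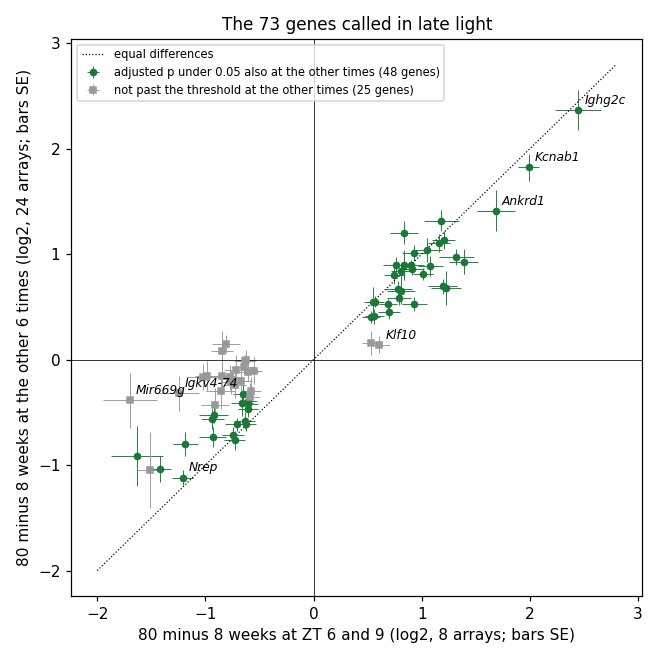
Age difference at the other 6 times (24 arrays) against that at ZT 6 and 9 (8 arrays) for the 73 genes called in late light, on the log2 scale with SE bars and a dotted line of equal differences. All 33 risen genes lie above 0 at the other times, some near the line (Kcnab1 at 1.99 and 1.82) and some below it (Klf10 at 0.61 and 0.14), while many fallen genes lie between the line and 0 (Mir669g at -1.70 and -0.38).

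The core clock showed no age difference past the test in late light (0 of 14 genes, limma). Their differences ran from -0.41 to 0.47. At an unadjusted p under 0.05, 5 were higher and 1 lower (1880 and 2109 of all 23279 genes were). Within both times 6 of the 14 were separated upward and 1 downward (8.56% and 8.17% of all genes were). Cry2, a repressor of the clock, was closest, at 7.87, 7.49, 7.92 and 7.96 in young and 8.19, 8.04, 8.40 and 8.48 in aged arrays (0.47, adjusted p = 0.0973, limma). In the model of 16 groups Cry2 passed, as 1 of the 14 (adjusted p = 0.0302, limma), where 1.37% of all genes rose. Per2, which climbs at this time, went from 6.50 and 6.26 at ZT 6 to 7.40 and 7.36 at ZT 9 in young muscle and from 6.83 and 6.99 to 7.62 and 7.51 in aged muscle. It was higher with age by 0.35, and Per1, its relative, by 0.34, both short of the test (adjusted p = 0.166 and 0.237, limma). Nr1d1, which encodes REV-ERB alpha and is near its peak here, had 11.37 to 11.88 in young and 10.93 to 11.44 in aged arrays, which overlapped (-0.41, adjusted p = 0.196, limma).

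Clock output genes were at 0 of 15 past the test, with a median of 0.03. Ppp1r3c, which targets a phosphatase to glycogen, differed by 0.52 and Coq10b, of the coenzyme Q pathway, by 0.30 (adjusted p = 0.14 and 0.185, limma).

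Stress-linked lists held no call in the 8 arrays. Of 13 immediate early genes, which respond within minutes to nerve activity, stretch or handling, 12 were higher and none passed the test, with a median of 0.35. Within both times 5 of the 13 were separated upward and none downward (8.56% and 8.17% of all genes were). Fos had 7.03, 6.44, 6.63 and 5.88 in young and 7.88, 7.47, 8.91 and 7.41 in aged arrays (1.42 ± 0.35 SE, adjusted p = 0.12, limma), where the aged array at 8.91 stood apart. Jun, its partner, differed by 0.68, Btg2 by 0.66 and Egr3 by 0.37. In the model of 16 groups 4 of the 13 rose (1.37% of all genes did), namely Fos, Egr1, Jun and Btg2 (adjusted p = 0.00581, 0.0159, 0.018 and 0.0248, limma). Of 15 glucocorticoid targets 12 were higher, and none passed. Mt2, a metal-binding metallothionein, had 6.72 to 7.35 in young and 8.05 to 8.99 in aged arrays (1.27, adjusted p = 0.054, limma), and Mt1 differed by 0.69. Tsc22d3, the leucine zipper gene known as a glucocorticoid target, differed by 0.31 (adjusted p = 0.231, limma). Of the 15 heat and cold response genes 8 were higher and none passed, with a median of 0.04 and Hspb1 lowest at -0.26. Hspa5, a chaperone of the endoplasmic reticulum, differed by 0.40, the cold-inducible Cirbp by 0.51 and Dnajb1 by 0.41.

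Lists of energy metabolism held no call. Of 23 oxidative phosphorylation genes 20 were lower and 6 were separated downward within both times (8.17% of all genes were), with a median of -0.10. Cox5a, a subunit of cytochrome oxidase, was the closest at 10.70 to 10.78 in young and 10.23 to 10.35 in aged arrays (-0.44, adjusted p = 0.0563, limma). Cyc1 (-0.36), Cox4i1 (-0.34) and Uqcrc1 (-0.24) of the same chain did not overlap either. The tricarboxylic acid cycle (median -0.06, Suclg1 at -0.28), fatty acid oxidation (0.12, Cpt2 at -0.32 and Eci1 at -0.24) and glucose and glycogen metabolism (0.07, Gbe1 at 0.47, Pgam2 at -0.26 and Pdp1 at 0.36) leaned less or both ways.

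Fibre type lists held no call. The fast fibre list (0 of 13) had a median of -0.02, with Casq1, the calcium buffer of fast fibres, at -0.20. The slow fibre list (0 of 12) had a median of -0.07, with Tnnc1 at -0.48 ± 0.36 (SE). In the cardiac and developmental sarcomere list Ankrd1 was the single call of 12 genes. Actc1, cardiac actin, was lower in all aged arrays (10.54, 12.27, 10.33 and 11.48 against 12.58 to 12.94, adjusted p = 0.0987, limma), with a wide spread among the aged. Myh3, the embryonic myosin, differed by 0.58 and Tnnt2 by 0.31.

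At the nerve-muscle junction 0 of 17 genes passed the test. Chrnb1, a subunit of the acetylcholine receptor, differed by 0.55 (adjusted p = 0.0783, limma) and Musk, the kinase that builds the junction, by 0.58. Runx1, which rises on denervation, differed by 0.36, and Chrne, the adult receptor subunit, by -0.38, all without overlap between ages. Within both times 5 of the 17 were separated upward and 2 downward (8.56% and 8.17% of all genes were). In all 9 of the 17 were higher, with a median of 0.17 (0.01 at ZT 6). Of 15 atrophy and autophagy genes Fbxo32 rose, the ubiquitin ligase atrogin-1 of muscle wasting. It had 10.60 to 10.75 in young and 11.10 to 11.26 in aged arrays, 1.47-fold (adjusted p = 0.0436, limma). Ctsl, a lysosomal protease, differed by -0.40 and the autophagy kinase Ulk1 by -0.28.

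Of 17 growth and secreted muscle factors Gdf11, a ligand of the TGF-beta family, rose 1.78-fold, from 7.08 to 7.57 to 7.72 to 8.45 (adjusted p = 0.0436, limma). Ostn, the muscle peptide osteocrin or musclin, lay just outside the threshold, at 8.89 to 9.82 against 10.50 to 11.64 (3.27-fold, adjusted p = 0.0502, limma). Dkk3 differed by 1.11 and Mstn, myostatin, by 0.37. In all 5 of the 17 were higher, with a median of -0.07. At an unadjusted p under 0.05, 4 were higher and 3 lower (1880 and 2109 of all 23279 genes were). The 3 lower genes were Igf1 (-0.46), Igfbp3 (-0.43) and Fndc5 (-0.25). Igfbp3, Fndc5 and Nog were separated downward within both times and 4 of the 17 upward (8.17% and 8.56% of all genes were). Of 16 genes of calcium handling and excitation Kcnab1 was the only call. Sln, sarcolipin, an inhibitor of the calcium pump, had 5.74 to 6.62 in young and 7.16 to 7.89 in aged arrays (2.51-fold, adjusted p = 0.0506, limma), and Stac3 differed by -0.19.

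Senescence and p53 genes had 1 call of 12, Eda2r, while Sesn2 differed by 0.47 and Trp53inp1 by 0.34 (adjusted p = 0.0812 and 0.137, limma). Of 14 interferon response genes 12 were lower and none passed (median -0.31). Irf7, the master regulator of the response, had 6.20 to 6.43 in young and 5.82 to 6.01 in aged arrays (-0.40, adjusted p = 0.0985, limma). Bst2 differed by -0.71 and Irf9 by -0.39. At the other 6 times the median of this list was 0.00. The oxidative stress list (0 of 15, Nqo1 at 0.40), the proteasome (0 of 13, Psma4 at 0.28), ribosomal proteins (0 of 9, Rpl3 at -0.79 from a low-signal probe set) and antigen presentation and complement (0 of 14, median 0.10) held no call.

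Other cell types differed between pools as much as between ages. The adipocyte list had a mean of 6.92 to 8.33 in young arrays and of 8.77, 6.96, 6.69 and 9.42 in aged arrays, with Lep at 0.76 ± 0.63 (SE) and Plin1 at 0.57 ± 0.52 (SE). Of 10 endothelial genes none passed and 1 was higher, with a median of -0.22. Tie1 (-0.36) and Cdh5 (-0.34) did not overlap between ages, and Kdr (-0.41) did. Within both times 3 of the 10 were separated downward (8.17% of all genes were) and none upward. Of 9 pericyte and smooth muscle genes 5 were higher (median 0.05), with Pdgfrb at -0.42. The fibro-adipogenic progenitor list also had 5 of 9 higher (median 0.10), with Cd34 at -0.34. Of 10 satellite cell genes 4 were higher (median -0.09), with Calcr at -0.41, Chrdl2 at -0.45 and Cdh15 at 0.25. None of these 3 lists held a call. Macrophage genes (0 of 11, Cd163 at 0.21, Mrc1 at 0.19), T and NK cell genes (0 of 9), neutrophil genes (0 of 9, S100a8 at -0.49), Schwann cell genes (0 of 7) and erythroid genes (0 of 4, Epb42 at 0.31) gave no call. Krt10, a keratin of skin, was at 8.62 in replicate 1 of the aged arrays at ZT 6 and at 5.85 to 6.19 in the other 7. It is the array with Alb at 11.35.

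**Figure D5:**
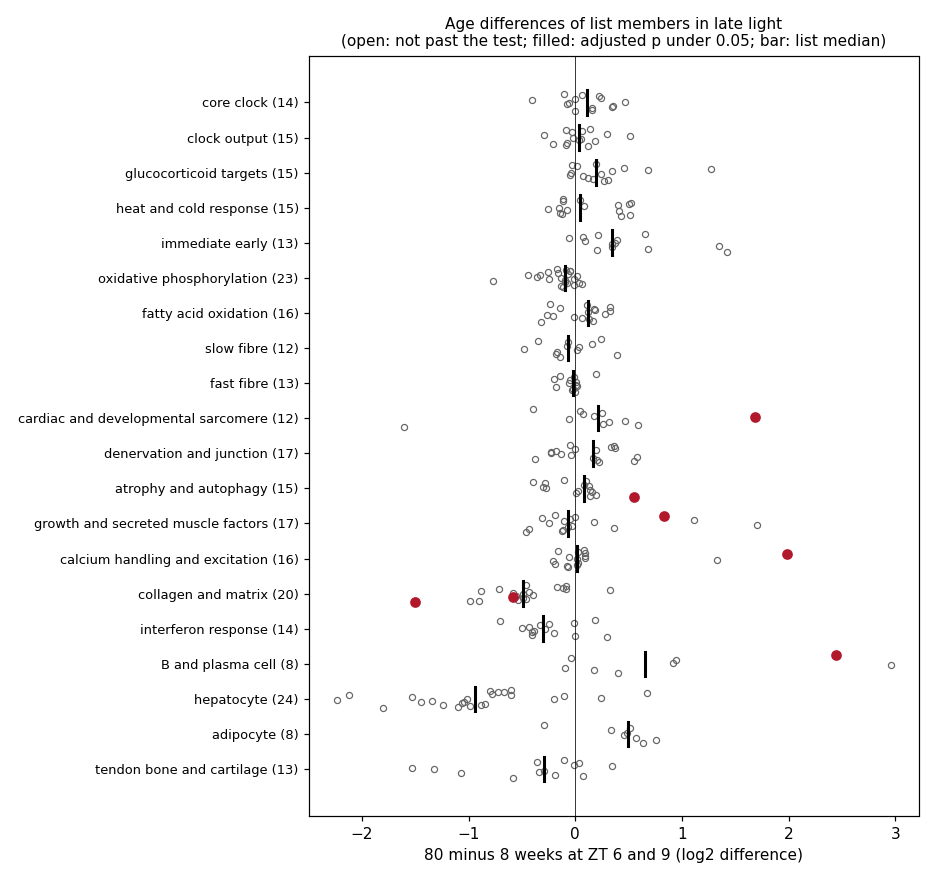
Age difference in late light (80 minus 8 weeks, log2) of each measured member of 20 gene lists, with the number measured in parentheses, open circles for members short of the test, filled circles for members with an adjusted p under 0.05 and a bar at the list median. Collagen and matrix genes lie lowest among the muscle lists (median -0.49), and single genes such as Kcnab1 stand far from the rest of their list.

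The age difference was compared between ZT 6 and ZT 9 by the interaction of age and time. No gene passed (limma, 0 of 23279), and 655 had an unadjusted p under 0.05. The smallest p belonged to Ibsp, a bone matrix protein, at 7.17 and 7.34 in the young arrays of ZT 6 and 4.19 to 4.81 in the other 6 arrays (2.58 between the times, adjusted p = 0.263, limma). Both had high Alb, while replicate 1 of the aged arrays at ZT 6, with Alb at 11.35, had Ibsp at 4.67. The next were 2210010C04Rik (-1.63), Vmn1r227 (-1.35) and Gm13102 (-1.10), all of low signal.

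The calls leaned on the full set of 8 arrays. Without the 3 arrays with liver transcripts the comparison came down to 2 arrays per age at ZT 9, and no gene passed (limma, 1888 at an unadjusted p under 0.05). All 73 genes kept their direction there, which was fixed in advance by their separation over all 8 arrays. The median ratio of the new to the old difference was 1.02, in arrays that had also served to call the genes. Kcnab1 was 1.99, Ighg2c 2.60, Ccn1 1.68, Col1a1 -1.42 and Meg3 -1.35 in those arrays. With the mean of the hepatocyte list as a covariate 9 of the 73 genes were called, namely Kcnab1, Ighg2c, Amy1, Hook1, Pkp2, Nrep, Col1a1, AF357425 and Tgif2lx2. Of these, Tgif2lx2 was of very low signal, with aged values of 2.01 to 2.35, below the 5th percentile of every aged array. It differed by 0.15 at the other 6 times, in the opposite direction. Leaving out any single array reduced the calls to between 6 and 16 rises and between 3 and 11 falls. In each of those 8 fits 7 genes were called: Kcnab1, Ighg2c, Amy1, Hook1, Col1a1, Nrep and AF357425. Meg3, Ccn1 and Pkp2 lost their call only without replicate 2 of the aged arrays at ZT 6 (adjusted p = 0.0559, 0.0538 and 0.0506, limma). Ankrd1 lost it without replicate 1 of the young arrays at ZT 9 (0.0585) and without replicate 1 of the aged arrays at ZT 6 (0.0579). Eda2r was called in 5 of the 8. In none of the 8 fits were 38 of the 73 genes called, so their calls in the 8-array fit need every array. With the spread taken from all 16 groups some of the 38 passed, as Taf9b did (adjusted p = 8.47e-05, limma). Others did not, such as Fbxo32 (adjusted p = 0.153, limma). Among these 38 were Fbxo32, Gdf11, Irs1, Klf10, Col6a2, Itm2a, Blnk, Pld5, Sema6c, Olfr790, Mir339, Mir453 and Mir10a. A further 15 genes were called in 1 of the 8, among them AF357355, Gbp7, Mir669g, Stk26 and the Igkv4 segment.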

How the data were processed

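RNA was measured on GeneChip Mouse Gene 2.0 ST arrays, 1 array per pool of 3 mice. The deposited values are log2 levels of 24479 probe sets, made by the authors with R 3.2.2, affy 1.44.1 and RMA (background correction, quantile normalization and probe summary), per the submitters' processing notes. RMA shrinks differences of weak genes. The genome build and the definition of probe sets were not stated in the sources used here. The precision is set by the number of arrays, which have no read depth.

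Of the probe sets, 23281 had 1 symbol in the platform annotation, none had several and 1198 had none. The probe set of highest mean over 32 arrays was kept per gene, leaving 23279 genes, with no filter on level. Age was tested with limma 3.58.1 in R 4.3.3 on 8 arrays with ZT as a factor, threshold 0.05 after Benjamini-Hochberg adjustment over all genes. ZT 6 was compared with ZT 9 by their interaction with age, and late light with the other 6 times in a model of 16 groups. The fit was tested on simulated data. The 24 other arrays, 3 of which had Alb over 2 above the median, were fitted with ZT as a factor.

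The text names the 12 largest rises and 12 largest falls past the test with separation within both times, up to 4 genes of each list and the 4 genes of smallest p in each further test, and says where a gene was added. The comparison, the 37 lists (477 of 521 entries measured) and the rule were chosen with earlier results of these data known. The Dlk1-Dio3 set, the promoter motifs and the lower Alb limit were added later. The sequences and gene order are those of RefSeq GRCm38.p6. Alternatives covered level filter, probe sets, normalization, variance prior, array weights, replicate block, samples in the fit, liver arrays and each array left out. The labels do not say what a replicate number marks, so no block was used in the main fit. Deviations of same-numbered arrays correlated between -0.17 and 0.13. Whether arrays of the same number share a condition was not tested.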

Additional observations from a re-analysis of the deposited data

Results flagged for a closer look

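Within each age the 4 arrays were searched for a single array far from the other 3, by Dixon's ratio with the limit for 4 samples (0.829). Of 300 groups tested 16 passed, and chance gives about 1 in 20. Replicate 1 of the aged arrays at ZT 6 and replicate 1 of those at ZT 9 each stood apart in 5 of the 16. At ZT 6, replicate 1 had a hepatocyte list mean of 7.97 against 5.72 to 6.06 in the other 3 aged arrays, a skin and keratin list mean of 6.74 against 5.33 to 5.52, Krt10 at 8.62 against 5.87 to 6.19, Kdr at 8.95 against 8.38 to 8.45 and Psma4 at 9.83 against 9.70 to 9.72.

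Replicate 1 of the aged arrays at ZT 9 was the lowest aged array for Col1a2 (7.89 against 8.58 to 8.69), Epb42 (5.22 against 5.41 to 5.43) and the mean of the tricarboxylic acid cycle list (11.26 against 11.35 to 11.37). It was the highest for Coq10b (8.84 against 8.58 to 8.61) and Mir339 (7.06 against 6.56 to 6.61). Replicate 2 of the aged arrays at ZT 6 had the highest mean of the cardiac and developmental sarcomere list, 8.31 against 7.94 to 7.99.

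In young arrays, Nr1d1 was 11.88 in replicate 2 at ZT 6 against 11.37 to 11.46 in the others. Replicate 1 at ZT 6 had Ctsl at 8.90 against 9.03 to 9.05 and Pkp2 at 6.35 against 6.01 to 6.06. Replicate 2 at ZT 9 had Mir10a at 2.87 against 3.21 to 3.27 and Plekhb1 at 10.09 against 9.77 to 9.80.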

How the results depend on the processing

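All 73 genes called in the 8 arrays kept their direction in each of the 21 alternatives in which they were tested, and none of their differences moved by over 1.5 times. This is no separate support, since the genes were chosen in these same arrays. All 73 were separated by age there, so leaving arrays out could not turn a sign. The numbers of calls moved much more. With genes of at least the median level 285 rose and 139 fell, with a trended and robust variance prior 348 and 212, with the spread of all 16 groups 318 and 257, and with array weights 53 rose. Testing every probe set (33 and 40) and quantile normalization (37 and 50) stayed within 1.5 times. The replicate number as a block gave 20 and 16, and the labels do not say what that number marks. Without the 2 arrays with Alb over 2 above the median there were 9 rises and 7 falls. Without the 3 arrays at the lower limit of 1.5, chosen after seeing the data, there were 0 and 0 (1888 genes at an unadjusted p under 0.05). At ZT 9 in the model of 16 groups, without the 5 or the 6 such arrays of the series, 14 rose and 13 fell. The hepatocyte mean as a covariate gave 5 and 4, and the adipocyte mean, added after seeing the data, 17 and 13. The cause of these moves was not tested. Leaving out each array in turn gave 6 to 16 rises and 3 to 11 falls, 0 to 2 genes that differ between ZT 6 and ZT 9, and 0 to 8 that differ between late light and the rest of the day, the last without replicate 2 of the aged arrays at ZT 6. Both tests gave 0 genes under the level filter, the trended prior and the block. The planned removal of arrays at the higher Alb limit leaves 1 young array at ZT 6, so its age difference is not that of ZT 9 alone. Of the 37 list medians, those of slow fibre (-0.07 and 0.15), antigen presentation (0.10 and -0.01) and skin and keratin genes (0.27 and -0.14) changed sign without the 3 arrays. Without the 2 arrays slow fibre (0.21), antigen presentation (-0.01), calcium handling (0.02 and -0.02) and adipocyte genes (0.50 and -0.04) did. Signal limits what the weakest genes can show.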
